A study of Danio rerio with 6 samples.

Results

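Collagen genes were taken by symbol, as every gene named col, then 1 or 2 digits, then a and a digit. The rule matched 54 of the 32268 genes in the feature lists. Of these, col4a3bpa and col4a3bpb encode a ceramide transfer protein that bears the collagen name only because it binds a type IV chain, and they were set apart. The 52 that stayed carry 50 symbols, since col6a3 and col19a1 each stand under a pair of Ensembl identifiers. Sorted by the structure of the protein, 16 are fibrillar, 11 FACIT, 8 beaded filament, 6 basement membrane, 5 network, 2 multiplexin, 2 anchoring fibril and 2 transmembrane collagens.

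Collagens are secreted chains that wind into helices and give tissues their strength. Fibrillar collagens such as type I form the cables of skin, tendon and bone, and FACIT collagens sit on the surface of those fibrils. Type IV collagen builds the sheets of basement membrane under epithelia and around vessels and muscle fibers, type VI forms beaded microfilaments near cells, type VII and type XVII anchor the epidermis, and the multiplexins XV and XVIII lie in basement membrane zones. In skin and in tumors fibroblasts are known as the main source of fibrillar collagen, and the collagen around a tumor is laid down, cross-linked and cut by enzymes that are themselves secreted.

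The data come from adult zebrafish with melanoma, in which the head and tail were removed and tumor and adjacent tissue were taken apart. The fish are of the casper background and carry human BRAF V600E under the mitfa promoter with p53-/- and mitfa-/-, and a mitfa minigene with mitfa-GFP, injected into embryos, gave back melanocytes, so that BRAF and GFP mark cells in which this promoter is active. All groups share this genotype, no fish without a tumor was analysed here, and comparisons are between cell classes. The classes come from the same fish, but the main fits had no fish term. Whole cells of samples E and F were freed with liberase and nuclei of 3 fish, pooled in a single reaction with a hashtag for each fish and sort gate, were freed by Dounce homogenization, each after sorting of equal numbers of GFP-positive and GFP-negative particles. The array positions of 3 tissue sections hold no gene values and were not used.

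After filtering there were 1780 cells of sample E with a median of 16265 UMIs, 1002 cells of sample F with 8879 and 13380 nuclei with 2160.5. Samples E and F shared 0 barcodes, and the nuclei shared 4 barcodes with E and 1 with F. Collagen genes gave 1744 UMIs in E, 2613 in F and 48023 in the nuclei, which is 52.6, 183 and 464 CPM (counts-per-million, the UMIs of a gene scaled by all UMIs of the library or class). Barcodes of the nuclear library with at most 100 UMIs, which stand for free RNA, held 503 CPM of collagen. In the nuclei, 52 of the 52 genes had a UMI and 50 had at least 20, against 13 in F and 9 in E.

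Each cell or nucleus was named by lists of marker genes that hold no collagen, so that a class such as fibroblast or tumor means fibroblast-like or tumor-like by those lists and not an annotation by the authors. Among the 108 nuclei that passed the fibroblast list, 55.6% had a UMI of dcn (decorin), 54.6% of pdgfra, 44.4% of mfap5 and 43.5% of postnb, while lum was found in 5.56%. Among the 891 tumor nuclei, 89.1% had a UMI of human BRAF, 70.6% of the pigment enzyme gene tyrp1b and 61.7% of EGFP. Hashtags placed 80 of the fibroblast nuclei and 754 of the tumor nuclei in a single fish. The sort gate on the hashtag did not separate them cleanly: 39.0% of these tumor nuclei and 22.5% of the fibroblast nuclei bore a GFP-positive tag. Fibroblast nuclei also held tumor markers at 1117, 371 and 773 CPM in fish 1, 2 and 3, against 5469, 7678 and 6684 CPM in tumor nuclei, mural markers at 528, 303 and 387 CPM and markers of chondrocytes, the collagen-rich cells of cartilage, at 217, 607 and 594 CPM. Of the 8 chondrocyte markers only 3 were detected in the 108 fibroblast nuclei, with 89 UMIs. In tumor nuclei the chondrocyte list was at 3.48, 0 and 6.73 CPM. What RNA of other classes adds to the values below was not tested.

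Summed over the 52 genes, collagen was highest in fibroblast nuclei. The sum was 20826, 19606 and 17719 CPM in fish 1, 2 and 3, from 18, 28 and 34 nuclei, with a mean of 19384 ± 1566 (SD, n = 3 fish). Mural nuclei, those of smooth muscle and pericytes around vessels, followed with 8203, 10694 and 9057 CPM. The ranges of these classes did not overlap with each other or with any class below them.

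Endothelial nuclei held 3189, 2833 and 2468 CPM of collagen, for a mean of 2830 ± 361 (SD, n = 3). Tumor nuclei held 860, 1364 and 3051 CPM, for a mean of 1758 ± 1148 (SD, n = 3), from 438, 34 and 282 nuclei. The tumor value of fish 3 thus lay inside the endothelial range and those of fish 1 and 2 below it. Keratinocytes had a mean of 1630 ± 197 and skeletal muscle of 1395 ± 477 CPM (SD, n = 3 each), and both overlapped with tumor. The other classes with at least 10 nuclei in each of 3 fish had means from 640 CPM in B cells down to 83.8 CPM in oocytes, where the free RNA stood at 503 CPM.

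**Figure D1:**
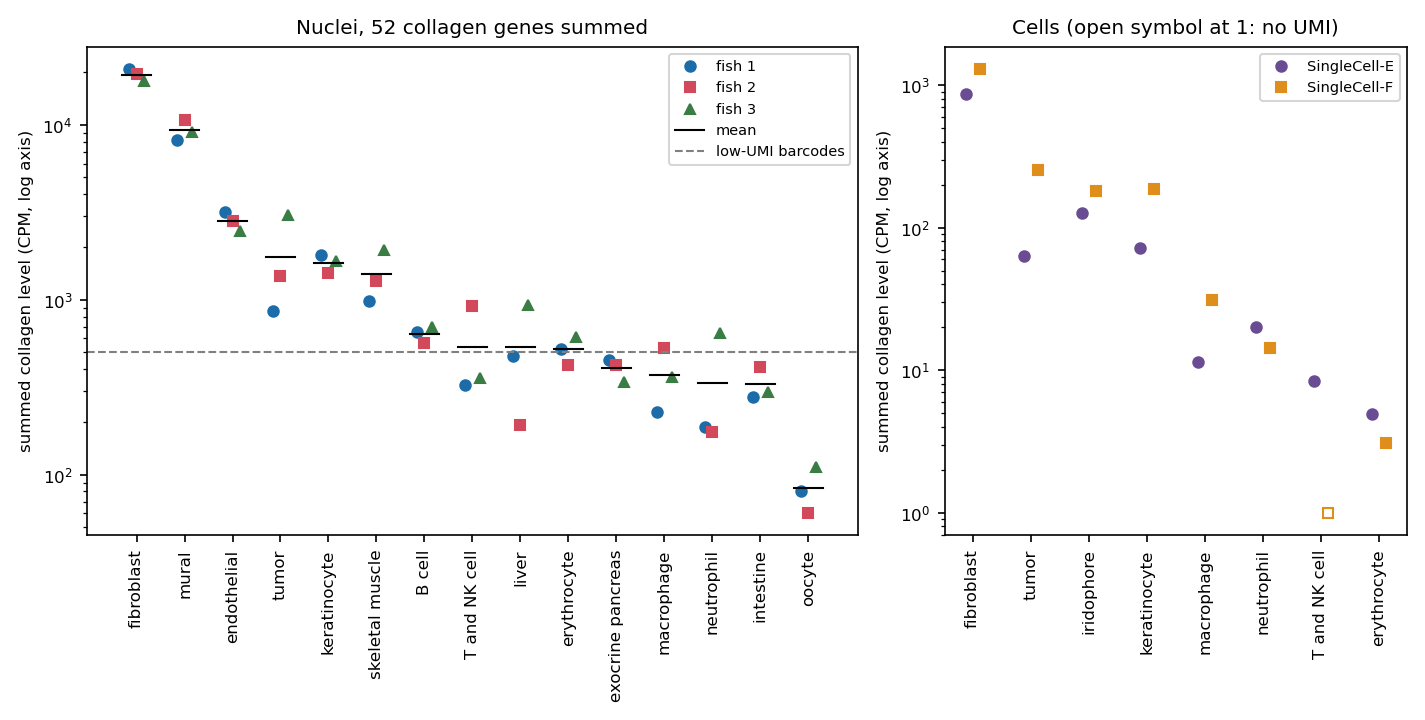
Summed level of the 52 collagen genes in CPM on log axes, by class of nuclei (left, a symbol for each of 3 fish, a line at the mean, the dashed line at the level in low-UMI barcodes) and by class of cells (right, samples E and F; an open symbol at 1 marks a class with no collagen UMI). Fibroblast nuclei stand at 17719 to 20826 CPM and mural nuclei at 8203 to 10694 CPM, above every other class shown, while tumor nuclei spread from 860 to 3051 CPM.

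Across 15 classes of nuclei with all 3 fish, 33 members had at least 20 UMIs in the class where their mean was highest. That class was fibroblast for 17 of them, keratinocyte for 5, mural for 5, endothelial for 3, skeletal muscle for 2 and tumor for 1. Of all 12819 genes placed in this way, 335, or 2.61%, were highest in fibroblasts. For 12 of the 17 fibroblast genes every fish lay above every fish of every other class, against 63, or 18.8%, of those 335 genes. These 12 are the type I chains col1a1a, col1a1b and col1a2, col5a1, col5a2a and col11a1b of the fibrillar family, the FACIT genes col12a1a, col12a1b and col16a1, and the beaded filament genes col6a3, col6a4a and col28a1b. Outside fibroblasts such a gap was seen for col17a1b in keratinocytes, col4a5 in mural nuclei and both col19a1 genes in skeletal muscle. Over every class such a gap was seen for 36.4% of all placed genes, so the gaps outside fibroblasts are no result about collagens. The remaining 19 members had fewer than 20 UMIs in their highest class, and no class is given for them. A gene was thus placed only through the class where it was highest, and 20 UMIs stand for a higher CPM in a small class. Fibroblast sums held 32219, 59318 and 72408 UMIs in fish 1, 2 and 3, and oocyte sums 11584873, 29357223 and 797857. The shares over all genes carry the same uneven floor, so these counts are a description and no test.

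**Figure D2:**
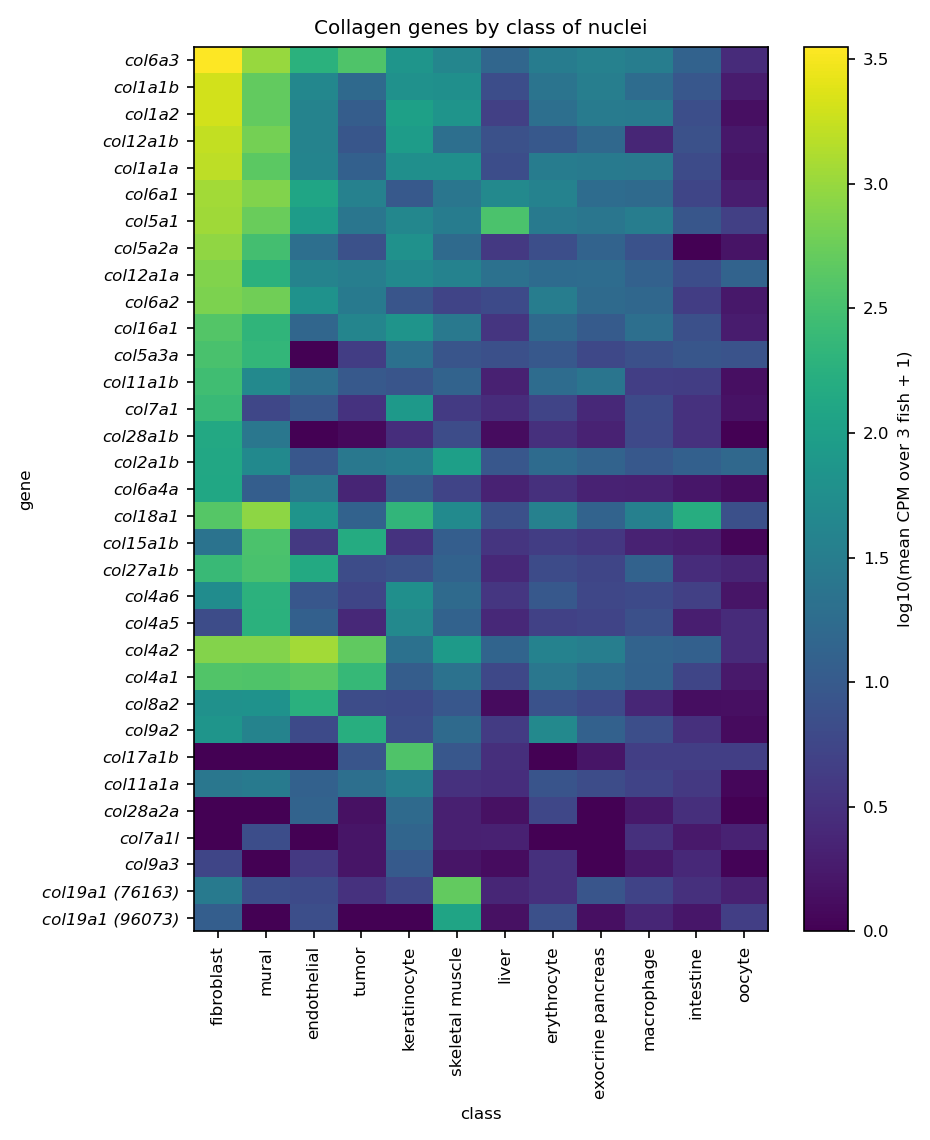
Level of the 33 placed collagen genes (rows, grouped by the class with the highest mean) in 12 classes of nuclei (columns), as log10 of the mean CPM over 3 fish plus 1. The upper block of rows is bright in the fibroblast column and less so in the mural column, while col17a1b stands out in keratinocytes and both col19a1 rows in skeletal muscle.

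UMIs were not divided by gene length, so an order among genes is of UMIs counted and not of molecules per length. In fibroblast nuclei the most counted gene was col6a3, the large chain of type VI microfilaments, at 4500.5, 2461 and 3660 CPM in fish 1, 2 and 3. Its partner chains col6a1 and col6a2 had means of 1151 and 700 CPM. Type I collagen, the main fibril of skin and bone, came next. The level of col1a1b was 1738, 2360 and 1934 CPM, that of col1a2 was 2359, 2225 and 1436 CPM and that of col1a1a was 1552, 1905 and 1243 CPM. The ranges of these type I genes overlapped with each other and lay below that of col6a3.

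Chains of type V, which co-assemble with type I and set the width of its fibrils, stood lower. The level of col5a1 was 776, 1517 and 1022 CPM, that of col5a2a 962, 927 and 842 CPM and that of col5a3a 341, 270 and 401 CPM. The values of col5a2a lay closer together over fish than those of col5a1. Among FACIT genes, which encode bridges on the fibril surface, col12a1b stood at 2669, 1028 and 1381 CPM, col12a1a at 993, 624 and 608 CPM and col16a1 at 435, 438 and 318 CPM. Fish 1 was high for both col12a1 copies. Basement membrane genes were present as well, with means of 775 CPM for col4a2 and 381 CPM for col4a1, and col18a1, whose product releases endostatin, had a mean of 412 CPM.

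Zebrafish carry duplicated copies of several collagens, and their balance differed between genes. In fibroblast nuclei col12a1b made up 72.9%, 62.2% and 69.4% of the UMIs of both col12a1 copies in fish 1, 2 and 3, whereas in tumor nuclei it made up 22.2% in fish 1, with 24 UMIs against 84 of col12a1a, and 22.2% in fish 3, with 6 against 21. In fish 2 it had 0 against 2. The col1a1b copy made up 52.8%, 55.3% and 60.9% in fibroblast nuclei. The col11a1b copy made up 87.5%, 100% and 88.9% of col11a1 UMIs in fibroblasts while in tumor nuclei it made up 14.1%, 100% and 38.5%, with 11, 2 and 5 UMIs against 67, 0 and 8 of col11a1a. For col5a3 the b copy made up 0%, 0% and 3.33% in fibroblast nuclei. How reads shared by such copies were assigned is not given in the sources used here.

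To find which collagens set fibroblasts apart from the tumor in the same fish, sums per class and fish were compared with edgeR's quasi-likelihood test. Of the 52 members, 34 passed the filter on low counts, 18 were higher in fibroblasts with p-values adjusted by Benjamini-Hochberg over all genes (threshold 0.05), and 0 were lower. Of the 11879 genes tested 564, or 4.75%, were called higher, against 52.9% of the members tested, and 294, or 2.47%, lower. The median log2 change was 3.52 over the members and -0.55 over all genes. Under DESeq2 the calls over all genes split into 437 higher and 480 lower, and 17 members were higher. A gene could pass the filter through any class where it was high, fibroblasts among them, so the share of members tested depends on the filter. With no filter on low counts 18 of the 52 members were higher and 1 was lower. Of all 27124 genes 537 were then higher and 575 lower.

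Genes of type I and its partners were among those with the widest change. The level of col1a2 was 21.6, 0 and 9.0 CPM in tumor nuclei of fish 1, 2 and 3, against at least 1436 CPM in fibroblasts, a log2 change of 6.68 ± 0.82 (SE, adjusted p = 6.08e-08, edgeR). The level of col1a1b in tumor nuclei was 25.7, 13 and 6.7 CPM, a log2 change of 6.44 ± 0.67 (SE, adjusted p = 5.61e-10, edgeR), and that of col1a1a was 22.3, 0 and 11.2 CPM, a log2 change of 6.22 ± 0.86 (SE, adjusted p = 6.57e-07, edgeR). All fibroblast sums of these genes lay above all tumor sums. Free RNA alone held 24.1 CPM of col1a2 and 23.1 CPM of each col1a1 copy. Its estimated share of the tumor sums, from liver, pancreas and oocyte markers, was 0.0949, 0.113 and 0.0665 in fish 1, 2 and 3. What part of the tumor levels was free RNA was not tested. Of type V, col5a2a changed by 6.63 ± 0.67 (SE, adjusted p = 5.61e-10) and col5a3a by 5.66 ± 0.71 (SE, adjusted p = 1.13e-07) on the log2 scale in the edgeR fit. The FACIT gene col12a1b was at 16.7, 0 and 6.7 CPM in tumor nuclei, with a log2 change of 6.74 ± 0.71 (SE, adjusted p = 1.07e-09, edgeR).

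Among the largest changes were also genes of low counts. The anchoring fibril gene col7a1 was at 372, 16.9 and 373 CPM in fibroblasts and at 1.4, 0 and 5.6 CPM in tumor nuclei, a log2 change of 5.83 ± 0.95 (SE, adjusted p = 1.61e-05, edgeR), with fish 2 far below the others in fibroblasts. The beaded filament gene col28a1b had 23 UMIs in fibroblast and 1 in tumor nuclei, a log2 change of 7.31 ± 1.22 (SE, adjusted p = 2.77e-05, edgeR). The ratio of its levels in the pooled sums was 348, with a 95% counting interval from 56.6 to 14348.

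The beaded filament gene col6a3 was higher in fibroblasts by 2.74 ± 0.86 on the log2 scale (SE, adjusted p = 0.0382, edgeR), in each of 3 fish. The size depended on fish 3, whose tumor nuclei held 1072 CPM of col6a3 against 43.1 and 6.5 CPM in fish 1 and 2. Without fish 3 the log2 change was 6.21 ± 0.86 (adjusted p = 2.83e-05, edgeR), and without fish 1 or fish 2 the adjusted p was 0.229 or 0.174. The call for col6a3 was lost in 6 of 12 alternatives, over which the adjusted p ran from 2.83e-05 to 0.229. The FACIT gene col16a1, next to col9a2 in the genome by RefSeq's GRCz12tu annotation, was higher by 2.59 ± 0.64 (SE, adjusted p = 0.00513, edgeR), and its adjusted p was 0.12 without fish 2 and 0.0533 with ambient UMIs taken off, within a range from 0.000278 to 0.12 over 12 alternatives.

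Other members did not pass the test. The log2 change of col4a1 was 0.36 ± 0.55 (SE, adjusted p = 0.77, edgeR) and that of col4a2 0.38 ± 0.61 (SE, adjusted p = 0.78, edgeR). These type IV chains, neighbours in the same annotation, therefore had no difference that was detectable beyond the spread between fish. The cartilage FACIT gene col9a2 had a value of -1.44 ± 1.01 (SE, adjusted p = 0.46, edgeR), and the multiplexin gene col15a1b of -2.94 ± 1.11 (SE, adjusted p = 0.10, edgeR).

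**Figure D3:**
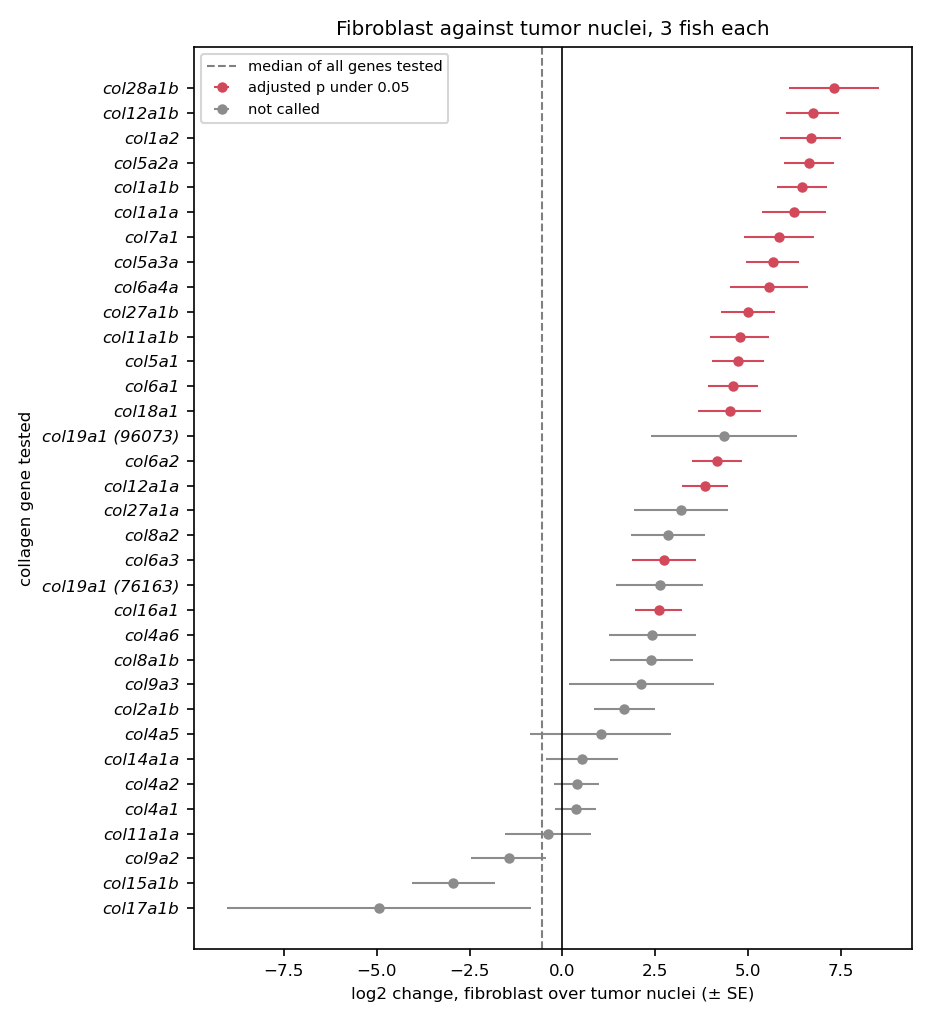
Log2 change of the 34 collagen genes tested between fibroblast and tumor nuclei (3 fish each), with the SE as a bar. Red points passed an adjusted p of 0.05 and grey points did not, the dashed line marks the median of all genes tested at -0.55, and the 18 red points lie to the right of 0 while col4a1 and col4a2 sit close to 0.

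Against the mean of the other classes without tumor, which shares its fibroblast sums with the comparison above, 23 of the 34 members tested were higher in fibroblasts and 0 lower. Of all genes tested 1176, or 9.90%, were higher and 23, or 0.194%, lower. With no filter on low counts 24 of 52 members were higher, and of all 27124 genes 1266 were higher and 21 lower. Fitted folds of this comparison are not given, since many classes hold no UMI of a gene and the fold then rests on the prior count. The leading genes in the same direction in each of 3 fish were col12a1b, col5a2a, col6a3, col1a1b, col1a2, col7a1, col1a1a and col28a1b, and the highest adjusted p among them was 3.66e-09 for col28a1b (edgeR). The class next to fibroblasts was mostly mural, where col1a1b had a mean of 497 CPM against 2011 in fibroblasts, col1a2 501 against 2007 and col5a2a 311 against 911. For col6a1 the mural range reached 915 CPM and the fibroblast range began at 856 CPM, so the ranges overlapped.

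Genes that make, cut and bind collagen were taken from a list of 73, of which 63 were found and 44 tested. Of these, 17 were higher in fibroblast than in tumor nuclei and 0 were lower (edgeR), with a median log2 change of 1.47. Of all genes tested 4.75% were higher and 2.47% lower, with a median of -0.55. Without fish 1, and likewise without fish 2, the count of 17 fell to 7. The genes higher among all those tested fell from 564 to 387 and to 280 in these fits. The count of listed genes was 10 with ambient UMIs taken off, where 403 of all 11733 genes were higher. With only these 2 classes in the fit it was 11 of 22, where 273 of all 2094 genes were higher. Under DESeq2 15 listed genes were higher and 1 lower. With no filter on low counts 14 of 63 were higher and 1 lower. By role, 7 of 8 tested genes of the degradation list were higher, 4 of 7 of propeptide cleavage and 3 of 5 of cross-linking. Of receptors 2 of 8 were higher, of chaperones and export 1 of 7 and of the hydroxylase list 0 of 9. The degradation list also holds timp2a and timp2b, genes of protease inhibitors, and timp2b was among the 7. The hydroxylase list, of prolyl and lysyl hydroxylases, also holds partners such as crtap, ppib and p4hb. Among the called genes mmp13a had the same direction in 1 of 3 fish. Counts were low for loxa, with 10 UMIs and 2 of 3 fish, loxl1, with 18, and tll1, with 13.

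The largest of these changes was that of loxl2a, an enzyme that cross-links collagen through lysines. It stood at 279, 826 and 497 CPM in fibroblasts and at 2.1, 0 and 1.1 CPM in tumor nuclei of fish 1, 2 and 3, a log2 change of 7.75 ± 1.05 (SE, adjusted p = 5.60e-07, edgeR). The matrix protease mmp2 stood at 248, 421 and 318 against 1.4, 0 and 10.1 CPM, a log2 change of 5.63 ± 0.78 (SE, adjusted p = 8.64e-07, edgeR). In both genes the fibroblast and tumor ranges were far apart. Its membrane-bound activator mmp14a changed by 5.33 ± 1.01 (adjusted p = 0.000246), the collagen receptor kinase ddr1 by 4.05 ± 0.73 (adjusted p = 7.53e-05), the gelatinase mmp9 by 3.60 ± 0.90 (adjusted p = 0.00595) and serpinh1b, a chaperone of procollagen, by 3.56 ± 0.77 (adjusted p = 0.00111), each on the log2 scale with its SE in the edgeR fit. Against the other classes without tumor, 30 of the 44 were higher in fibroblasts, among them 8 of 8 of the degradation list and 5 of 5 of cross-linking. Of all genes tested 9.90% were higher in that comparison.

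The most counted collagens of tumor nuclei varied over fish. By the mean over fish the leading gene was col4a2 of basement membrane, at 133, 604 and 694 CPM in fish 1, 2 and 3, with its partner chain col4a1 at 108, 312 and 287 CPM. Fish 1 was low and fish 2 and 3 were alike for both. In single fish col4a2 led in fish 2, while col15a1b led in fish 1 and col6a3 in fish 3. The level of col9a2 was 23.6, 45.5 and 434 CPM, and it was highest in fish 3. The multiplexin col15a1b went another way, at 140, 240 and 70.7 CPM, with fish 3 lowest. Below these came col16a1 at 45.2, 0 and 77.5 CPM, col12a1a at 58.4, 13 and 23.6 CPM and col6a1 at 4.9, 32.5 and 69.6 CPM.

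In fish 3, col6a3 stood at 1072 CPM and 157 of 282 tumor nuclei had a UMI of it, or 55.7%, at a median of 2543.5 UMIs. In fish 1 the share was 7.99% of 438 nuclei and in fish 2 it was 1 of 34 nuclei. Macrophage nuclei, taken as a class that should lack the gene, had a UMI of col6a3 in 2.84% of 211 nuclei of fish 3, at a median of 1979 UMIs. The share in tumor nuclei of fish 3 was thus well above that of macrophages in the same fish. Split by hashtag, col6a3 was at 1290 CPM in 79 nuclei with the GFP-positive tag and at 942 CPM in 203 with the GFP-negative tag. The tag did not separate the classes cleanly, so no conclusion is drawn from this split.

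Some genes on the marker lists of other classes were higher in fish 3. In its tumor nuclei the 8 genes of the mural list summed to 879 CPM, against 118 and 214 CPM in fish 1 and 2. Of this sum 858 CPM was cspg4, whose levels in fish 1 and 2 were 79.3 and 156 CPM, while the defining smooth muscle genes myh11a, acta2 and tagln were at 5.6, 7.9 and 6.7 CPM. The fibroblast list summed to 184 CPM, against 81.4 and 97.4 CPM, with prrx1a at 101 and twist2 at 48.3 CPM, dcn at 3.4 CPM and lum at 0. The osteoblast list summed to 140 CPM, of which runx2b made up 123 CPM, with bglap at 0. In the 71 tumor nuclei of fish 3 with no UMI of a fibroblast or mural marker, a group added after the data were seen, col6a3 was at 596 CPM, col9a2 at 621 CPM and all collagens at 2816 CPM. Over the 3 fish such nuclei held 768, 1720 and 2816 CPM of collagen. Tumor nuclei with a UMI of cspg4 are left out of this group, since that gene is on the mural list. The part of the listed markers in the levels of fish 3 was not tested further.

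**Figure D4:**
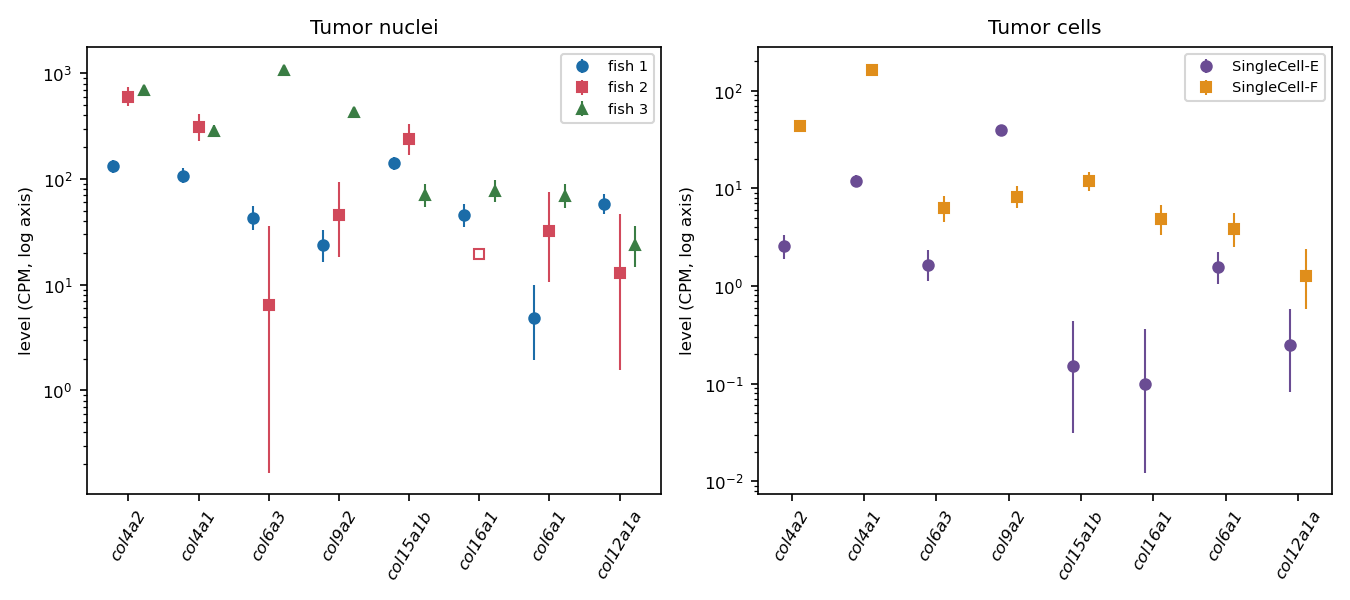
Level of the 8 leading collagen genes in tumor nuclei (left, 3 fish) and in tumor cells (right, samples E and F) in CPM on log axes, with 95% Poisson intervals for counting error as bars and an open symbol at the limit that a count of 0 allows. In nuclei col6a3 spreads from 6.5 to 1072 CPM over fish while col4a1 spreads from 108 to 312 CPM, and in cells col4a1 leads in F and col9a2 in E.

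Against the mean of the other classes without fibroblasts, 8 of the 34 members tested were higher in tumor nuclei and 0 were lower by edgeR. Of all genes tested 2227, or 18.7%, were higher and 28, or 0.236%, lower, so that the share of members, 23.5%, was near the background and is no result about collagens. The median log2 value was 0.37 over members and 0.59 over all genes. The 8 were col15a1b, col9a2, col6a3, col8a1b, col4a1, col4a2, col6a2 and col16a1, of which col15a1b, col9a2 and col4a1 had the same direction in each of 3 fish. Adjusted p-values by edgeR were 1.06e-09 for col15a1b, 5.66e-08 for col9a2 and 3.96e-11 for col4a1. Without fish 3 the calls for col6a3, col6a2, col16a1 and col8a1b were lost, with adjusted p-values of 0.403, 0.904, 0.616 and 0.662.

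From the list of genes that make, cut and bind collagen, 16 of 44 were higher in tumor nuclei than in the mean of these classes. Of these, 6 were among the 9 tested of the hydroxylase list and 1 among the 8 of the degradation list. Without fish 3 the count was 10 of 38, where 1354 of all 9327 genes were higher. Of all genes tested 18.7% were higher in the main fit. In each of 3 fish the direction held for fkbp10a, a prolyl isomerase that folds procollagen, p3h2, which hydroxylates prolines of type IV collagen, serpinh1a, loxl2b, the integrin receptor chain itga1 and p4ha1b. The level of fkbp10a was 156, 71.5 and 212 CPM in tumor nuclei of fish 1, 2 and 3 and that of p3h2 was 152, 195 and 411 CPM. In fibroblast nuclei these genes stood at 62.1, 118 and 124 CPM and at 403, 135 and 207 CPM, so the ranges of the 2 classes overlapped for both. Adjusted p-values by edgeR against the other classes were 3.50e-10 for fkbp10a and 2.18e-10 for p3h2.

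In other classes the most counted collagens differed. Keratinocytes were led by col17a1b, the transmembrane collagen of hemidesmosomes, at 263, 315 and 545 CPM in fish 1, 2 and 3, and the next class reached 52.3 CPM in a fish at most. It was found in 25.1% of 1000 keratinocyte nuclei and in 0.342% of 584 macrophage nuclei. The anchoring fibril gene col7a1 was at 96.8, 72.6 and 67.8 CPM there, and col18a1 and col1a2 had means of 215 and 101 CPM.

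Skeletal muscle was led by col19a1, a FACIT-like collagen known from muscle in mouse. The first of its identifiers stood at 362, 415 and 727 CPM and the second at 153, 90.9 and 103 CPM, and the level of the next class, fibroblast, had a mean of 28.1 and 10.3 CPM. In all 52.8% of 706 muscle nuclei had a UMI of the first, against 0.856% of macrophage nuclei. The fibrillar gene col2a1b followed at 69.7, 79.1 and 155 CPM.

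Endothelial nuclei were led by col4a2 at 821, 1472 and 1151 CPM and by col4a1 at 467, 522 and 340 CPM, with col6a3 next at a mean of 181 CPM. The network gene col8a2, which was highest in this class, stood at 129, 261 and 148 CPM. Mural nuclei held col6a3 at a mean of 998 CPM and col4a2 at 787 CPM. In them col18a1 varied from 297 CPM in fish 1 to 1812 CPM in fish 2, and col15a1b was at 0, 35.2 and 1011 CPM in fish 1, 2 and 3. The type IV genes col4a5 and col4a6, neighbours in RefSeq's annotation, were both highest in mural nuclei, col4a5 at 59.4, 193 and 295 CPM and col4a6 at 0, 246 and 323 CPM. Both were lowest in fish 1, which gave 13 of the mural nuclei.

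In liver nuclei col5a1 was at 291, 81.1 and 667 CPM, where the other collagens had means of at most 45.5 CPM, and in the intestine col18a1 had a mean of 161 CPM. In free RNA col5a1 was at 54.5 CPM and col18a1 at 28.1 CPM.

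Grouped by family, collagen UMIs of fibroblast nuclei were 44.9% fibrillar, 29.5% beaded filament and 14.7% FACIT, with 6.46% from basement membrane genes. In endothelial nuclei the basement membrane genes made up 57.5%, and by fish 41.4%, 70.4% and 61.5%. In muscle FACIT genes made up 45.7%, and in keratinocytes transmembrane collagens made up 26.2%. Tumor nuclei had no family in front in every fish. Basement membrane genes made up 28.5%, 67.6% and 32.7% of their collagen UMIs in fish 1, 2 and 3, beaded filament genes 7.28%, 3.81% and 39.7% and fibrillar genes 26.5%, 2.86% and 4.16%. In each fish the fibrillar share was lower in tumor than in fibroblast nuclei, where it was 40.2%, 50.8% and 43.5%.

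**Figure D5:**
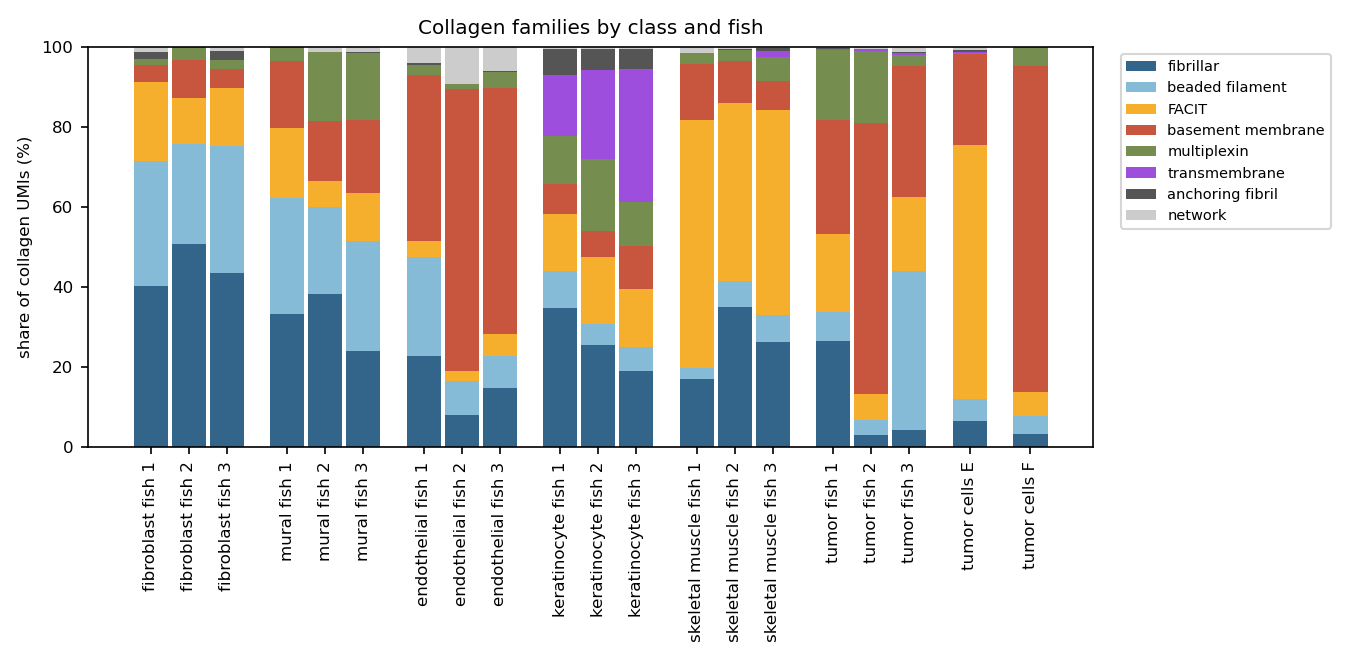
Share of collagen UMIs by family in percent, a bar for each class and fish of the nuclei and for the tumor cells of samples E and F. The fibrillar share is 40.2% to 50.8% in fibroblast nuclei, while tumor bars differ from each other, with 67.6% basement membrane in nuclei of fish 2, 81.6% in cells of F and 63.5% FACIT in cells of E.

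Among the dissociated cells fibroblasts were rare, with 8 in sample E and 11 in sample F. Their collagen sum was 864 CPM in E, with a 95% Poisson interval from 608 to 1191, and 1295 CPM in F, from 1044 to 1589. Tumor cells, 944 in E and 379 in F, held 63.8 and 255 CPM, so fibroblasts were higher in both samples. Tumor was not the next class in either sample. In E iridophores held 127 CPM and keratinocytes 71.7 CPM, and in F male germ cells held 286 CPM. Iridophores and keratinocytes of F, at 180 and 188 CPM, lay below tumor. These levels are far below those of nuclei. Cells and nuclei differ in isolation, sequencing and processing, and the parts of these in the gap cannot be told apart. Fibroblast cells of E held 2264 CPM of tumor markers and those of F 1422 CPM, against 11294 and 8500.5 CPM in the tumor cells. Their fibroblast markers were at 1564 CPM in E, below the tumor markers, and at 1802 CPM in F. In tumor cells the fibroblast markers were at 19.2 and 69.9 CPM. In E dcn was found in 1 of the 8 fibroblast cells, so the name of this class is less sure there. In F mfap5 was found in 7 of the 11 fibroblast cells, dcn in 4, pdgfra in 3 and lum in 0. The gene twist1a gave 59 of the 128 UMIs of the fibroblast list in F, so the name is not certain there either.

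In fibroblast cells col1a2 led, with 9 UMIs in E and 19 in F, or 210 and 268 CPM. The level of col1a1a was 117 and 113 CPM. Its copy col1a1b had 0 UMIs in fibroblast cells of E and 12 in those of F. In tumor cells of F no UMI of col1a2, col1a1a or col5a2a was counted, against 19, 8 and 5 in fibroblast cells. The lower 95% counting limits of the ratio of fibroblast to tumor cells were 465, 170 and 91.3. These limits cover counting error in sample F only, and not the spread between cells or fish. The collagen share of the 11 fibroblast cells of F ran from 0.0142% to 0.693%. The level of col4a1 in F was 141 CPM in fibroblast and 163 CPM in tumor cells, a ratio of 0.863 with a 95% counting interval from 0.413 to 1.59. In E it was 163 CPM in fibroblast cells, from 7 UMIs with a 95% Poisson interval from 65.7 to 337 CPM, and 12 CPM in tumor cells, and the difference between the samples was not tested.

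Sample E had fewer than 10 fibroblast cells. The fibroblast side of the comparison with tumor cells is thus the lone sum of F. Its spread is assumed to be that of the other classes. The tumor side took in both E and F, at 63.8 and 255 CPM of collagen, so this is partly a comparison between samples. By edgeR's quasi-likelihood test 2 of 14 members tested were higher in fibroblasts, col1a2 (adjusted p = 0.011) and col1a1b (adjusted p = 0.0427), and 0 were lower. Of all genes tested 45, or 0.431%, were higher and 0, or 0%, lower, and 840 had a p of 0.05 or less before adjustment. DESeq2 called 20 genes higher and 154 lower and 0 members. A fit blocked by fish called 91 higher and 4 lower, with 2 members. The median log2 change was 4.05 over the members and -1.67 over all genes. Over the 25 tested genes that make, cut and bind collagen it was 0.07.

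The leading collagens of tumor cells differed between samples. In E they were col9a2 at 39.7 CPM and col4a1 at 12 CPM, and in F col4a1 at 163 CPM and col4a2 at 43.8 CPM, with col15a1b at 11.7 and col9a2 at 8.19 CPM. The level of col4a1 was thus higher in F and that of col9a2 higher in E. The level of col6a3 was 1.65 CPM in E and 6.22 CPM in F, unlike in the tumor nuclei of fish 3. In other cells, col9a2 was at 112 CPM in the iridophores of E, another pigment cell of neural crest origin, from 39 UMIs in 21 cells.

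Against the mean of the other classes without fibroblasts, edgeR's quasi-likelihood test called 3 of 14 members higher in tumor cells and 0 lower. Of all genes tested 704, or 6.74%, were higher and 93, or 0.890%, lower. Blocked by fish, the calls were 1012 higher and 193 lower, with 4 members higher, and under DESeq2 653 higher and 293 lower, with 1 member. The 3 were col4a1 (adjusted p = 0.00169), col4a2 (adjusted p = 0.00695) and col9a2 (adjusted p = 0.039), each higher in both samples, and under DESeq2 the adjusted p was 0.146 for col4a2 and 0.194 for col9a2. All 3 are also among the 8 members called in tumor nuclei. The overlap over all genes was not counted, so this overlap is no result about collagens. Of the genes that make, cut and bind collagen, 6 of 25 were higher, serpinh1b, serpinh1a, loxl2a, crtap, p3h2 and itga1, where crtap encodes a partner of the prolyl 3-hydroxylases. This comparison leaves fibroblasts out, whereas in nuclei loxl2a and serpinh1b were higher in fibroblasts than in tumor. In tumor nuclei loxl2a stood at 2.1, 0 and 1.1 CPM in fish 1, 2 and 3. The difference between tumor cells and tumor nuclei in these genes was not tested.

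The balance of the type IV pair differed between nuclei and cells. In tumor cells col4a1 made up 82.5% of the UMIs of col4a1 and col4a2 in E (95% exact binomial interval 77.6% to 86.7%) and 78.8% in F (76.7% to 80.9%). In tumor nuclei it made up 44.8%, 34.0% and 29.3% in fish 1, 2 and 3, and in endothelial nuclei 36.3%, 26.2% and 22.8%. The shares of both cell samples thus lay above those of all 3 fish of nuclei. These intervals cover counting error only.

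Single nuclei also varied within a class. Collagen made up a median of 1.72% of the UMIs of a fibroblast nucleus, from 0.0859% to 12.1%, and a median of 9.5 collagen genes were detected in it, from 2 to 22. All 108 had at least 1 collagen UMI. In mural nuclei the median share was 0.731% with 6 genes, and in tumor nuclei 0.128% with 2 genes, where 123 of 891 nuclei had no collagen UMI. For col6a3, 89.8% of fibroblast nuclei had a UMI, and for col1a2 70.4%, against 26.2% and 3.48% of tumor nuclei and 2.91% and 3.42% of macrophage nuclei. The tumor share of col1a2 was thus close to that of macrophages.

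Depth differs between classes, so each nucleus was also thinned to 500 UMIs. The share of nuclei with a collagen UMI was then 97.2% in fibroblasts (100% at full depth), 88.5% in mural (94.7%), 70.8% in endothelial (88.5%), 47.9% in tumor (86.2%), 45.3% in muscle (80.7%) and 36.7% in keratinocyte nuclei (59.5%). Macrophages, at 11.6% (34.2%), gave the background. In oocytes, whose median was 64465 UMIs, the share fell from 87.9% to 4.26%. The order of fibroblast, mural and endothelial nuclei was the same at both depths. In cells thinned to 2000 UMIs, which left out 24 tumor cells of E and 31 of F, the share was 12% in tumor cells of E (54.2% in full) and 35.9% in F (78.4%), and 5 of 7 fibroblast cells of E and 6 of 10 of F kept a collagen UMI.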

How the data were processed

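From 10x Genomics 3′ libraries the deposited files give counts of UMIs, not normalized, of called cells for samples E and F, and of every barcode, with hashtags, for the nuclei. Per the labels Cell Ranger 3.1.0 (cells) and 5.0.1 (nuclei) were used with GRCz10; whether introns were counted is not given in the sources used here. The members and gene lists were chosen with earlier results of these data known.

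Cells were kept from 200 genes up and to a mitochondrial share of 20%, and nuclei from 500 UMIs up. A cell took a class if the UMIs of that class's markers passed a Poisson p of 0.001 over background, with 2 distinct markers, and was left out as mixed where the log p of another list reached 0.5 of the first. No doublet caller was run. Nuclei with a single hashtag above 2 times its median were placed in a fish.

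UMIs were summed per class and fish (at least 10 nuclei or cells) and compared by the quasi-likelihood test of edgeR 4.0.16 with TMM factors and the filterByExpr filter, all classes in a single fit and p-values adjusted by Benjamini-Hochberg over the genes tested, or by DESeq2 1.42.0 as an alternative, in R 4.3.3 and Python 3.11.15. An SE was derived from the F statistic. On simulated data the test of nuclei missed most of the smaller changes, so a gene not called is not shown to be alike. The simulation used a fixed spread, the same base level in every class and fewer classes than the real fit, so its rates need not hold there. Samples E and F were treated as a fish each, but their titles name no fish. The paper gives different numbers of fish for the single cells in its Results and its Methods. Fish pair the classes, as these come from the same animal; deviations of same-fish sums correlated at a median of 0.073 over 315 pairs of nuclei sums and 0.12 over 42 of cells. The fit had no fish term, and its block was an alternative. Genes named are the 15 most counted members in fibroblasts, the 8 in tumor and the 3 in other classes, and in each comparison up to 8 called members and 6 listed genes with the largest changes, the same direction in every fish and at least 20 UMIs; others were named after their values were seen. Symbols were matched to RefSeq (GRCz12tu) for 49 of 50, for neighbours only.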

Additional observations from a re-analysis of the deposited data

How the results depend on the processing

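The 18 members called higher in fibroblast than in tumor nuclei ranged from 16 to 19 without a fish in turn, the 23 against other classes from 22 to 23, and the 8 of tumor nuclei from 6 to 8. Of all genes, 280 to 433, 742 to 1051 and 1354 to 2078 were higher in these fits. With no filter on low counts, 18 members were higher and 1 was lower in fibroblast than in tumor nuclei. All 27124 genes tested there split into 537 higher and 575 lower. With classes from clusters built without collagen genes, 23 members were higher and 2 lower in that comparison. Over all 15026 genes, 1098 were higher and 833 lower with these clusters. The fibroblast cluster held 344 nuclei, of which 89 had been named fibroblast by the marker lists. The 8 of tumor nuclei became 13 with no filter on low counts, where 4384 of all 27124 genes tested were higher. With clusters 14 members were called in tumor nuclei, of which 12 were higher and 2 lower. Of all 15026 genes tested there, 3091 were higher and 317 lower. The 3 members of tumor cells became 5 with no filter and 1 under DESeq2, and the 2 of fibroblast cells 4 with no filter, 4 with clusters and 0 under DESeq2. With no filter 1908 of all 23525 genes were higher and 96 lower in tumor cells, and 108 higher and 11 lower in fibroblast cells. With clusters 202 of all 12086 genes were higher and 154 lower in fibroblast cells. The summed collagen CPM per class and fish: fibroblast nuclei, mean over fish, was 19384 and moved to 25268 with a stricter gate, 23557 with at least 3 distinct markers and 14622 with clusters, and ranged from 18663 to 20216 without a fish in turn. The cause of these shifts was not tested. With the fish as a replicate block the members called were 19, 24, 8, 4 and 2 in the 5 comparisons, and every member called without the block was also called with it. Among all genes 662, 1267, 2313, 1012 and 91 were higher with the block.

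DESeq2 moved the median of all genes from 0.13 to -0.19 and from 0.59 to 0.32 in the fibroblast and tumor comparisons with other nuclei, and from 0.19 to 0.31 and from -1.67 to -0.83 in those of cells. Over the alternatives of these counts and sums, 77 values stayed close to the main value, 5 were stronger, 2 weaker and 3 moved. A count was close if it changed by no more than a set factor. A sum was close if it shifted by less than the SD over fish. Leaving out a sample of cells leaves no residual degrees of freedom, so no test was made, and the stricter gate and 3 markers leave too few fibroblast cells for their comparison. Few fibroblast cells and 34 tumor nuclei in fish 2 limit what could be detected.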

Other observations

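Some classes did not reach 10 nuclei in each of 3 fish. The 10 tenocyte nuclei, cells of tendon, held 7275 CPM of collagen, the 4 osteoblast nuclei 6872 CPM and the 32 satellite nuclei 4040 CPM, each from all nuclei pooled, with no replicate. By fish, tenocytes held 886, 43869 and 6808 CPM in fish 1, 2 and 3, from 5, 3 and 1 nuclei. Osteoblasts held 0 and 16021 CPM in fish 1 and 2, from 1 nucleus each. The tenocyte nuclei also held tumor markers at 1782 CPM, against 2029 CPM of their own list. Iridophore nuclei held 1802 CPM in fish 2 and 4509 CPM in fish 3, from 17 and 14 nuclei, and myelinating glia 1561.5 and 1690 CPM in the same fish, from 14 nuclei each. Neurons held 811 CPM in fish 1 and 1379 CPM in fish 3, from 130 and 18 nuclei, and somatic cells of the gonad 1942 CPM in the 26 nuclei of fish 2. Satellite cells held 1799.5, 16796 and 3015 CPM in fish 1, 2 and 3, from 12, 2 and 8 nuclei.

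No class was given to 3043 nuclei, which held 1515 CPM of collagen, and 676 nuclei left out as mixed held 1001 CPM. Both values lie below that of endothelial nuclei.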
